A study of Canis lupus familiaris with 28 samples.

Results

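Heat shock proteins and chaperonins were examined as a group of 72 genes in primary canine oral malignant melanoma (OMM). They were chosen by symbol from the annotation of the array, which had to begin with HSP90, with HSPA, HSPB, HSPD, HSPE or HSPH and a digit, with DNAJA, DNAJB or DNAJC and a digit, or with CCT and a digit. A gene was read at its brightest Transcript cluster, the set of probes along 1 transcribed locus that gives 1 value per array. The 72 genes were taken from 16295 genes with a Transcript cluster of their own, and the array held 32391 Transcript clusters in all. By family they are 3 HSP90, 10 HSPA, 1 HSPH, 7 HSPB, 2 HSPD/HSPE, 4 DNAJA, 13 DNAJB, 23 DNAJC and 9 CCT genes. A further 7 Transcript clusters carried several gene entries with such a symbol and name no gene here, and HSPA1A, HSPA1B, HSPA1L and HSPB11 were not analysed here.

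RNA came from formalin-fixed, paraffin-embedded biopsies of 28 dogs, 18 with a metastasising (M) and 10 with a non-metastasising (NM) primary OMM, with 1 canine gene array per tumour. The dogs were of several breeds, among them 8 Golden Retrievers (4 M and 4 NM), 7 cross breed dogs (6 M and 1 NM) and 13 dogs of other breeds. The 13 included 5 Labrador Retrievers. The rest were Dachshund, Border Collie, Bouvier des Flandres, Bullmastiff, Cocker Spaniel, Great Dane and Irish Terrier dogs. The labels give metastatic status and breed, and sex, age, tumour stage and RNA integrity were not joined to the tumours here. All tumours were spontaneous and no group carried an engineered allele, and in bulk tissue fewer cells of a type and less RNA per cell cannot be told apart.

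Values were log2 signals, ran from 0.34 to 12.88 and had a median of 1.62 over the means of all Transcript clusters. Of the 72 genes, 49 had a mean above that median and 52 had a mean under 2, so that most lay in the dim part of the scale. The share of an array's Transcript clusters above a log2 value of 4, the bright share, lay between 4.30 and 6.19% in the M and between 4.85 and 6.40% in the NM OMMs. It lay between 4.87 and 6.40% (median 6.01%) in the Golden Retriever OMMs and between 4.30 and 4.91% (median 4.68%) in the cross breed OMMs, and it correlated with the first principal component of the 28 arrays with a Pearson r of 0.93, as a description. All 7 markers of melanocytes were measured, and their mean log2 value in a tumour lay between 1.71 and 5.04 in the M and between 1.79 and 5.16 in the NM OMMs.

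Chaperones help other proteins to fold, hold them when they unfold and pass them on for refolding or degradation. HSP70 proteins, encoded by HSPA genes, bind stretches of unfolded protein in a cycle driven by ATP, J-domain proteins (DNAJA, DNAJB and DNAJC) bring the substrate and speed up ATP hydrolysis, and HSP110 proteins such as HSPH1 exchange the nucleotide. HSP90 proteins take over substrates close to their folded state, among them many kinases and steroid receptors, small heat shock proteins (HSPB) hold unfolding proteins without ATP, and the chaperonins (HSPD1 with its lid HSPE1 in mitochondria, and the CCT ring in the cytosol) enclose the folding protein in a chamber. In tumours, heat shock proteins are widely studied for holding mutated or surplus client proteins in a usable form.

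**Figure D1:**
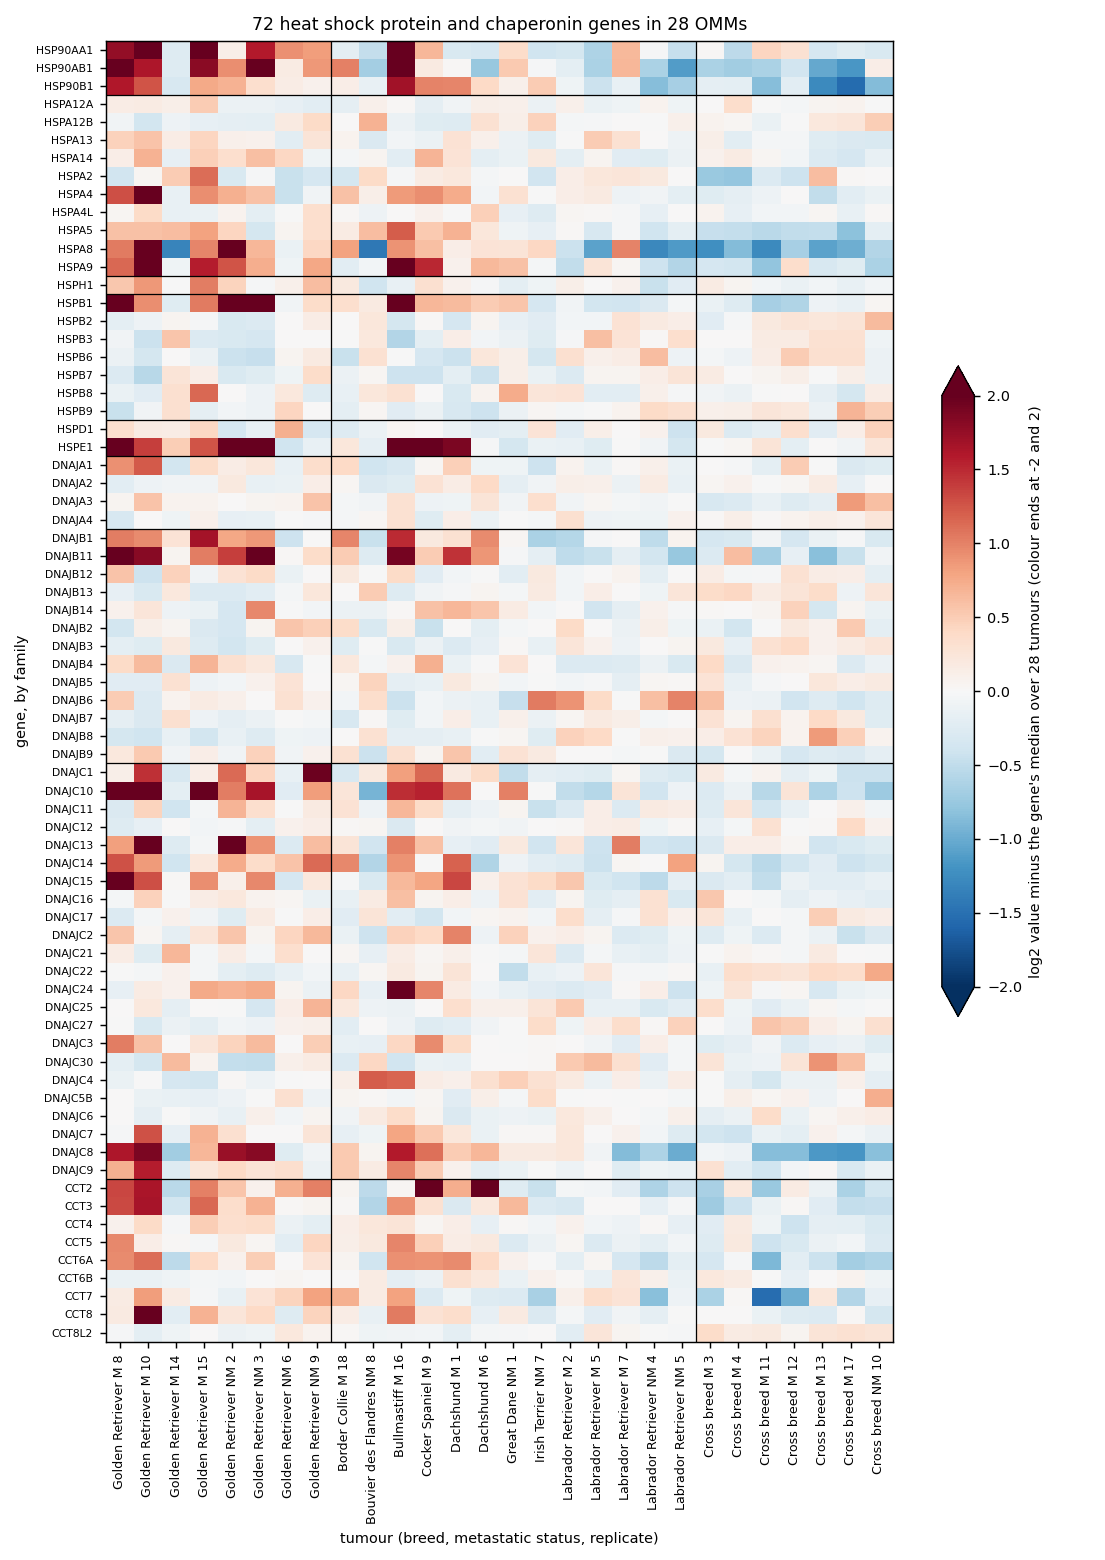
Log2 value of each of the 72 genes (rows, grouped by family) in each of the 28 OMMs (columns, Golden Retrievers on the left, cross breed dogs on the right), as the difference from the gene's own median over the 28 tumours. The Golden Retriever M OMM replicate 10 held the highest value of 13 genes and the Bullmastiff M OMM replicate 16 that of 9 genes, and the cross breed columns are mostly pale or blue in the HSP90, HSPA and CCT rows.

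The first comparison asked whether chaperone genes differed between tumours that metastasised and tumours that did not. No member passed an adjusted p of 0.05 in limma, and neither did any of the 32391 Transcript clusters (0%), nor did any by an unmoderated unpaired t-test with the same Benjamini-Hochberg adjustment over all of them. The study's own filter and its adjustment by permutation were not repeated. With these the paper reported Transcript clusters that differed significantly between M and NM OMMs. At an unadjusted p under 0.05, 0 of the 72 genes were higher and 1 was lower in M OMMs, against 0.976% of all Transcript clusters that were higher and 1.57% that were lower. The difference in log2 value, M minus NM, was positive for 48 genes and negative for 24, and its median over the genes was 0.03 against 0.00 over all Transcript clusters. All 9 CCT genes had a positive difference, between 0.01 and 0.51, while 5 of the 7 HSPB genes had a negative one. For CCT4, CCT6B, CCT7 and CCT8L2 the difference was at most 0.023, with standard errors between 0.06 and 0.22. Of all 32391 Transcript clusters, 16310 had a positive difference.

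HSPA12B, a distant HSP70 relative known in mouse and human from endothelial cells, was the single gene with an unadjusted p under 0.05. Its log2 values ran from 1.44 through a median of 1.77 to 2.11 in the M OMMs and from 1.61 through 1.95 to 2.50 in the NM OMMs. The groups overlapped over most of their range, with the 5 highest values of all divided between 4 NM OMMs and 1 M OMM. The fitted difference was -0.24 with a standard error of 0.09 (unadjusted p = 0.0124, adjusted p = 1 in limma). None of the 5 endothelial markers measured passed the test, and their median difference was 0.03.

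DNAJB1, the J-domain partner of stress-inducible HSP70, had values from 2.07 through 2.74 to 4.31 in the M OMMs and from 2.02 through 2.48 to 3.51 in the NM OMMs. Its difference of 0.39 (standard error 0.24, unadjusted p = 0.112, adjusted p = 1 in limma) was the second largest positive one among the 72 genes after that of CCT2. HSPA13, an HSP70 protein of microsomes, ran from 1.14 through 1.51 to 1.99 in M and from 1.12 through 1.31 to 1.68 in NM OMMs, a difference of 0.19 with a standard error of 0.10 (unadjusted p = 0.0553 in limma). Both genes had the higher median in M OMMs, and most tumours of either group lay in the range they shared.

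The major cytosolic chaperones were spread widely within both groups. HSP90AA1, the stress-inducible cytosolic HSP90, ran from 1.0 through 1.54 to 5.05 in M and from 1.14 through 1.66 to 3.21 in NM OMMs. HSP90AB1, the constitutive form, ran from 1.50 through 2.43 to 5.22 in M and from 1.54 through 2.80 to 4.76 in NM OMMs. HSPA8, the constitutive HSP70 of the cytosol, ran from 1.12 through 2.28 to 4.70 in M and from 1.0 through 2.50 to 4.58 in NM OMMs. For these 3 genes the fitted differences were 0.31, -0.01 and 0.02, with standard errors of 0.41, 0.42 and 0.41, so that a shift of either sign was within the error.

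In the endoplasmic reticulum, HSPA5 (the HSP70 also called BiP) ran from 2.10 through 3.01 to 4.13 in M and from 2.52 through 2.79 to 3.53 in NM OMMs. HSP90B1, the HSP90 of the same compartment, ran from 2.60 through 4.02 to 5.83 in M and from 3.26 through 4.23 to 4.83 in NM OMMs. The M range enclosed the NM range for both genes, and the differences were 0.10 and 0.21 with standard errors of 0.20 and 0.31. The mitochondrial HSP70 HSPA9 ran from 2.26 through 3.11 to 6.41 in M and from 2.41 through 3.01 to 4.31 in NM OMMs.

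**Figure D2:**
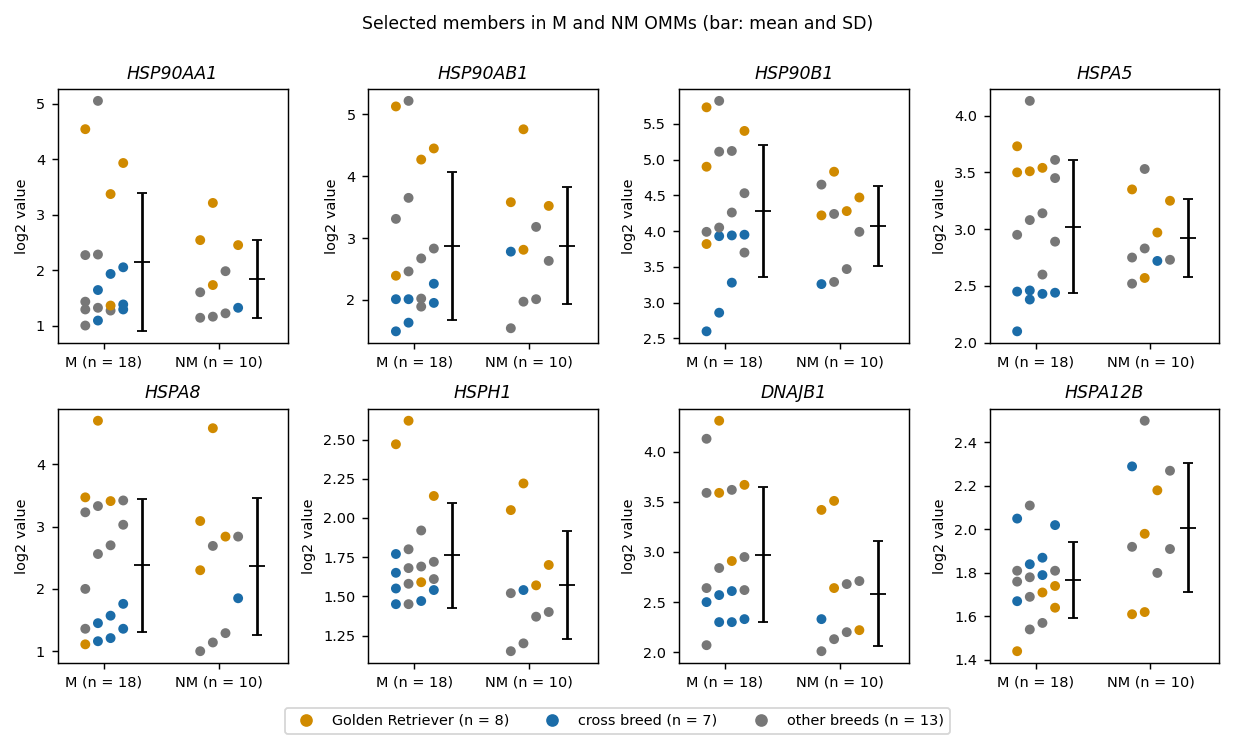
Log2 values of 8 genes (1 point per tumour, with the mean and SD beside the points) in 18 M and 10 NM OMMs, coloured by breed. For HSP90AA1 and HSP90AB1 the high points of both groups are mostly Golden Retrievers and the Bullmastiff, and the HSPA5 values of the cross breed dogs lie between 2.10 and 2.72.

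Metastatic status and Golden Retriever breed were also fitted with an interaction. None of the 32391 Transcript clusters passed adjustment (0%), and 3.07% had an unadjusted p under 0.05, as had 3 of the 72 genes. HSPA12A had a difference between M and NM OMMs of 0.38 in Golden Retrievers and -0.01 in the other dogs (interaction 0.39, standard error 0.12, unadjusted p = 0.00406, adjusted p = 1). HSPB8, a small heat shock protein that works with the co-chaperone BAG3, had an interaction of 0.62 (unadjusted p = 0.0213), and HSPA2, the HSP70 best known from the testis, one of 0.70 (unadjusted p = 0.0411, all in limma). All 3 genes had their highest value of the 28 tumours in the same Golden Retriever M OMM, replicate 15. That tumour also had the second highest values of CKM (6.24) and MYH2 (4.78), which skeletal muscle uses, after the Great Dane NM OMM replicate 1 (7.71 and 7.25). Of the 9 muscle genes measured, DES (2.54), MB (3.75) and MYL1 (2.11) were also second highest in it. Its ACTA1 (1.32) and MYH1 (1.45) values lay under the medians of 1.378 and 1.465 over the 28 tumours. TNNT1 (2.16) and TNNT3 (1.97) were higher in several cross breed OMMs. In the Great Dane OMM HSPB8 stood at 2.21, HSPA12A at 1.54 and HSPA2 at 1.86. The medians of these genes over the 28 tumours were 1.48, 1.435 and 1.86. The part of muscle in the 3 results was not tested.

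The second comparison set the 8 Golden Retriever OMMs against the 20 others with metastatic status in the model. Of the 72 genes, 6 were higher in Golden Retriever OMMs at an adjusted p under 0.05 (8.33%) and 0 were lower, against 1.45% higher and 1.09% lower of all Transcript clusters. Among Transcript clusters that carry a single symbol and lie above that median of 1.62, 3.43% were higher and 0.689% lower, against 5 of the 49 genes in that range (10.2%) that were higher. The median difference over the 72 genes was 0.15 and that over all Transcript clusters -0.07. Over the 49 genes in the brighter range it was 0.401, and over the brighter Transcript clusters with a single symbol 0.046, of the same sign. The 6 genes were HSPH1, DNAJC10, HSP90AB1, HSPA13, DNAJB11 and CCT3.

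HSPH1, the HSP110 nucleotide exchange factor of HSP70, had the smallest p. Its values ran from 1.57 through a median of 2.10 to 2.62 in the Golden Retriever OMMs and from 1.15 through 1.54 to 1.92 in the others. All 8 Golden Retriever OMMs lay above the median of the other tumours, and 5 of the 8 lay above every one of them. The fitted difference was 0.55 (standard error 0.10), a 1.46-fold change, with an adjusted p of 0.0167 in limma.

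HSP90AB1 was 2.71-fold higher, with values from 2.40 through 3.93 to 5.13 in the Golden Retriever OMMs and from 1.50 through 2.14 to 5.22 in the others (difference 1.44, standard error 0.37, adjusted p = 0.0446 in limma). All 8 Golden Retriever OMMs were above the median of the others, and the highest value of all belonged to the Bullmastiff. HSP90AA1 showed the same order of values, from 1.36 through 2.87 to 4.54 against 1.0 through 1.35 to 5.05, and with a difference of 1.31 (standard error 0.38) it missed the threshold (adjusted p = 0.0533 in limma). HSP90B1, in the endoplasmic reticulum, had a difference of 0.77 (standard error 0.31) and an adjusted p of 0.105 in limma. A Transcript cluster annotated to both SLC29A1 and HSP90AB1 had a smaller difference of 0.14 (standard error 0.16). Another, annotated to LOC607470 and HSP90AA1, had one of 0.25 (standard error 0.16), and neither was called. Which of its genes such a cluster reads was not tested.

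DNAJC10 and DNAJB11, both J-domain proteins of the endoplasmic reticulum that work with HSPA5, were higher by 1.49 and 1.16 on the log2 scale. DNAJC10, a disulfide reductase as well as a co-chaperone, ran from 1.78 through 3.34 to 5.09 in Golden Retriever OMMs and from 1.07 through 1.90 to 3.54 in the others (adjusted p = 0.0415 in limma). DNAJB11 ran from 1.92 through 3.09 to 4.07 against 1.05 through 1.71 to 3.80 (adjusted p = 0.0474 in limma). For DNAJC10, 6 of the 8 Golden Retriever OMMs were above the median of the others, and for DNAJB11 all 8 were. HSPA5 itself differed by 0.48 (standard error 0.20) and did not pass the test (adjusted p = 0.111 in limma).

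HSPA13 ran from 1.22 through 1.63 to 1.99 in Golden Retriever OMMs and from 1.12 through 1.38 to 1.93 in the others, a difference of 0.32 (standard error 0.09, adjusted p = 0.0472 in limma). CCT3, the gamma subunit of the CCT ring, ran from 1.60 through 2.49 to 3.62 against 1.26 through 1.82 to 2.89, a difference of 0.76 (standard error 0.21, adjusted p = 0.0474 in limma). For each gene 7 of the 8 Golden Retriever OMMs lay above the median of the others. Of the remaining 66 genes, the J-domain gene DNAJB8 had the lowest p among those with lower values in Golden Retriever OMMs, at a difference of -0.37 (adjusted p = 0.0534 in limma).

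Several other measures moved with this breed difference. The Golden Retriever arrays had the higher bright shares, and with the bright share as a covariate 0 of the 72 genes and 0 Transcript clusters were called (2 genes higher and 1 lower at an unadjusted p under 0.05). The bright share can move with the quality of the RNA from fixed tissue as well as with the tissue, RNA integrity was not matched to the arrays here, and the part of RNA quality in the breed difference was not tested. Of 8 markers of oral epithelium 1, KRT5, was higher (difference 2.42, adjusted p = 0.0483 in limma), and the mean log2 value of the 8 lay between 1.77 and 4.71 in Golden Retriever OMMs and between 1.66 and 3.82 in the others. For 6 fibroblast markers the range was 2.75 to 5.82 against 2.60 to 4.83 and none was called, and for the 7 melanocyte markers it was 1.98 to 5.16 against 1.71 to 5.04 and none was called. The difference was positive for 7 of the 8 epithelium, all 6 fibroblast and 6 of the 7 melanocyte markers. Its median was 0.87, 0.74 and 1.09 over these lists. At an unadjusted p under 0.05 in limma, 5, 1 and 2 markers were higher. All 9 muscle markers and 4 of the 6 B and plasma cell markers had a negative difference. All 5 endothelial markers had a positive one, as had 2 of 4 T cell and 3 of 5 macrophage markers. None of these was called. The part of other cell types in the result was not tested.

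The count of 6 genes also rested on which tumours were compared. It was 0 without any one of the Golden Retriever M OMMs replicates 8, 10 or 15, and 0 without the 7 cross breed OMMs, when the median difference over the 72 genes was 0.14. It was 22 without the Bullmastiff M OMM and 27 without the Golden Retriever M OMM replicate 14. Leaving out 1 tumour at a time gave 1 gene in 12 of 28 fits and a median of 1, and the count stayed between 4 and 8 only without the Border Collie M OMM, the Dachshund M OMM replicate 6, the Great Dane NM OMM or the Irish Terrier NM OMM.

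**Figure D3:**
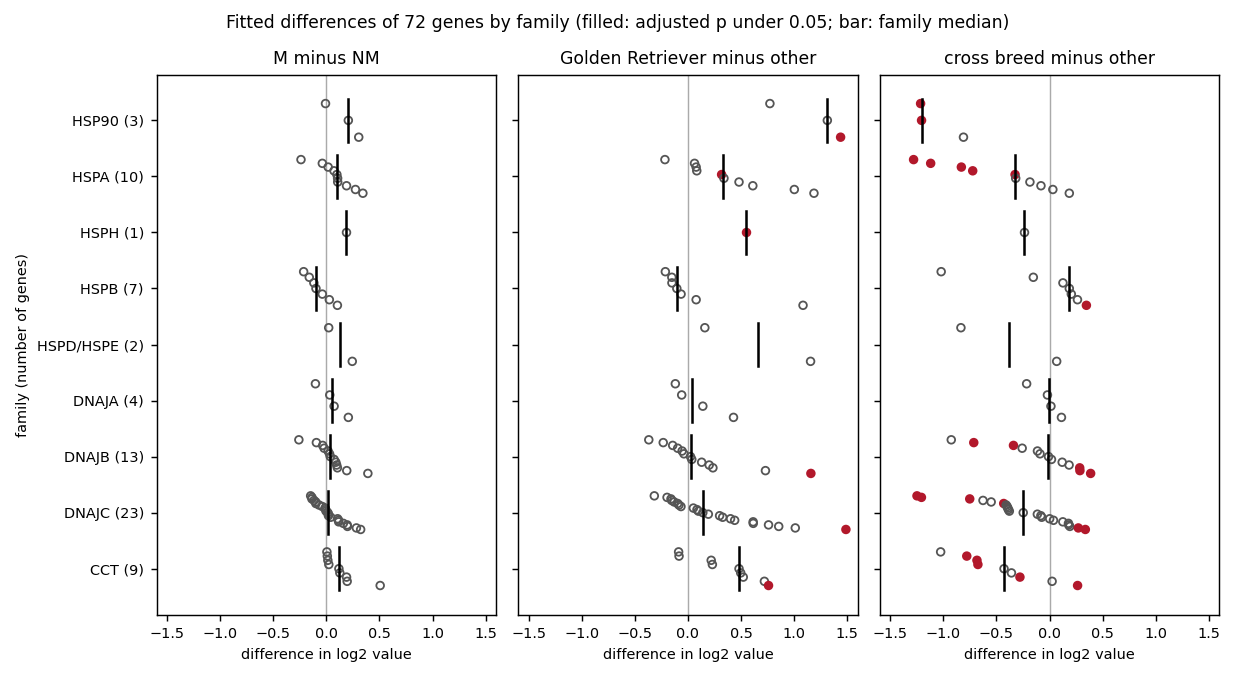
Fitted difference in log2 value of each of the 72 genes (1 point per gene, by family) between M and NM OMMs, Golden Retriever and other OMMs, and cross breed and other OMMs, with the family median as a bar and genes with an adjusted p under 0.05 filled. No point is filled for M minus NM, 6 are filled to the right of 0 for Golden Retriever minus other, and 7 to the right and 17 to the left for cross breed minus other.

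The third comparison set the 7 cross breed OMMs against the 21 others, again with metastatic status in the model. It shares tumours with the second comparison, since the Golden Retriever OMMs are among the 21. Of the 72 genes, 17 were lower in cross breed OMMs (23.6%) and 7 were higher (9.72%), against 5.15% lower and 14.2% higher of all Transcript clusters. Among the same brighter Transcript clusters with a single symbol 11% were lower and 10.2% higher, and of the 49 genes in that range 13 were lower (26.5%) and 3 higher (6.12%). The median difference was -0.20 over the 72 genes and 0.08 over all Transcript clusters. Over the 49 genes in the brighter range it was -0.388, and over the brighter Transcript clusters with a single symbol -0.055, of the same sign.

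The endoplasmic reticulum pair had the smallest p-values among the genes that were lower. HSPA5 ran from 2.10 through 2.44 to 2.72 in the cross breed OMMs and from 2.52 through 3.14 to 4.13 in the others, and HSP90B1 from 2.60 through 3.28 to 3.95 against 3.29 through 4.28 to 5.83. For both genes all 7 cross breed OMMs lay under the median of the others, and the ranges overlapped only at the edge for HSPA5. The differences were -0.83 (standard error 0.16, adjusted p = 0.00227) and -1.21 (standard error 0.28, adjusted p = 0.0055, both in limma), a 1.78-fold and a 2.31-fold change.

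The HSP70 genes HSPA8, HSPA9, HSPA4 and HSPA13 were also lower, with differences of -1.28, -1.12, -0.72 and -0.33 in log2 value and adjusted p between 0.0168 and 0.0444 in limma. HSPA8 ran from 1.16 through 1.45 to 1.85 in the cross breed OMMs, where all 7 lay under the median of 2.84 of the others, whose lowest value of 1.0 belonged to an NM OMM. Of the cytosolic HSP90 genes HSP90AB1 was lower (difference -1.22, adjusted p = 0.0477 in limma), while HSP90AA1 had a difference of -0.81 (standard error 0.45, adjusted p = 0.192 in limma). The Transcript cluster annotated to SLC29A1 and HSP90AB1 had a difference of -0.229, and that annotated to LOC607470 and HSP90AA1 one of -0.345. Neither was called.

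In the CCT ring, CCT3, CCT4, CCT6A and CCT7 were lower, with differences of -0.68, -0.28, -0.78 and -0.68 in log2 value. CCT6A had the smallest p of the 4 and ran from 1.36 through 1.83 to 2.23 in the cross breed OMMs and from 1.74 through 2.34 to 3.37 in the others (adjusted p = 0.00855 in limma). TCP1, the alpha subunit of the same ring and no member by its symbol, was lower (difference -0.42, adjusted p = 0.048 in limma). Of the J-domain genes DNAJB1, DNAJB9, DNAJC3, DNAJC8, DNAJC10 and DNAJC15 were lower, of which DNAJC8, a protein linked to RNA splicing, ran from 2.20 through 2.54 to 3.33 against 2.40 through 3.61 to 5.26.

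The 7 genes that were higher in cross breed OMMs were CCT8L2, DNAJB3, DNAJB8, DNAJB13, DNAJC22, DNAJC27 and HSPB9. Several of them, such as DNAJB3, DNAJB8, DNAJB13 and HSPB9, are best known from the testis in human or mouse. HSPA2, also best known from the testis, had a negative difference (-0.32, standard error 0.17) and was not called. The differences of the 7 genes lay between 0.26 and 0.39, smaller than those of most genes that were lower. DNAJB8 ran from 1.74 through 1.96 to 2.53 in the cross breed OMMs and from 1.28 through 1.58 to 2.13 in the others (adjusted p = 0.0198 in limma), and all 7 lay above the median of the others. The mean of 4 of the 7 genes was at or under the median of all Transcript clusters.

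All 7 cross breed arrays had a bright share of at most 4.91%, and with it as a covariate 0 of the 72 genes were called, with the median difference at 0.01. The part of RNA quality in this difference was not tested either. All 6 fibroblast markers had a negative difference and 2 were called lower, and all 5 endothelial markers had one and 1 was called lower. Other lists were mixed. Differences were positive for 6 of 9 muscle, 4 of 6 B and plasma cell, 1 of 4 T cell and 1 of 5 macrophage markers. ACTA1 (difference 0.58), CD79A (0.28) and CD8A (0.34) of the first 3 of these lists were called higher. Of the 7 melanocyte markers SOX10 was called higher (difference 0.59), while the other 6 had negative differences and were not called, with a median of -0.76 over the list. Of the 8 oral epithelium markers 7 had negative differences, with a median of -0.79, 3 were lower at an unadjusted p under 0.05 and none was called. The mean log2 value of the melanocyte markers lay between 2.06 and 3.07 in cross breed OMMs and between 1.71 and 5.16 in the others, and that of the oral epithelium markers between 1.80 and 2.20 against 1.66 and 4.71. The part of other cell types in the result was not tested. Without the Bullmastiff M OMM the count of members called was 14 in place of 24, and leaving out 1 tumour at a time gave between 10 and 28. It was 10 without the cross breed M OMM replicate 13 or 17, 13 without replicate 3 and 15 without replicate 11, all cross breed M OMMs, and 14 without the Golden Retriever M OMM replicate 10.

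Other genes of protein folding were taken from a list of 51, of which 49 were measured. None was called between M and NM OMMs, and 1 was lower at an unadjusted p under 0.05. In Golden Retriever OMMs 2 were higher, which were TCP1 (difference 0.53, adjusted p = 0.0387 in limma) and CLPX, the unfoldase of a mitochondrial protease (0.89, adjusted p = 0.0446 in limma). In Golden Retriever OMMs 1.45% of all Transcript clusters were called higher, and 3.43% of the brighter ones with 1 symbol. In cross breed OMMs 12 of the 49 were lower and 2 higher, where 5.15% of all Transcript clusters were lower and 14.2% higher, and 11% and 10.2% of the brighter ones with 1 symbol. Of 10 genes of folding and stress in the endoplasmic reticulum 5 were lower, among them the calcium-binding lectin chaperones CALR (difference -0.92) and CANX (-0.77) and the transcription factor ATF4 (-0.82). The 4 genes of heat shock factors and their regulator, which include HSF1, the main activator of heat shock genes, were not called in any of the 3 comparisons.

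Across tumours, 8 pairs of genes were compared that act together or mark a tissue, with Benjamini-Hochberg adjustment over the 8. HSP90AA1 and HSP90AB1 had a Pearson r of 0.840 (permutation p = 1e-05, the smallest that 100000 resamples can give, adjusted p = 4e-05) and a Spearman rho of 0.755 (permutation p = 3e-05, adjusted p = 8e-05). Leaving out the 2 tumours with the most extreme HSP90AA1 values gave an r of 0.794, and r was 0.866 in the 18 M, 0.814 in the 10 NM and 0.861 in the 21 OMMs that were not from cross breed dogs. In 5 tumours, 4 of them from Golden Retrievers, HSP90AA1 stood at 3.21 or more, and among the other 23, all at 2.54 or less, r was 0.531 (permutation p = 0.009). With the bright share removed from both genes r was 0.696 (permutation p = 9e-05).

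HSPA5 and HSP90B1 had an r of 0.792 (permutation p = 1e-05, adjusted p = 4e-05) and a rho of 0.749 (permutation p = 2e-05, adjusted p = 8e-05). The r was 0.706 without the 2 farthest tumours, 0.864 in M, 0.709 without the cross breed OMMs and 0.652 after removal of the bright share. In the 10 NM OMMs it was 0.394 (permutation p = 0.261). These 2 pairs were the ones that passed adjustment with the bright share removed.

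HSP90AA1 with HSPH1 (r = 0.538, rho = 0.414), HSPA8 with its J-domain partner DNAJA1 (r = 0.571, rho = 0.528) and CCT2 with CCT5 (r = 0.489, rho = 0.608) passed adjustment over all 28 tumours, with permutation p of 0.00462, 0.00125 and 0.0125 for r and 0.0299, 0.0048 and 0.00075 for rho, and with adjusted p of 0.00739, 0.0025 and 0.0167 for r and 0.0398, 0.00768 and 0.0015 for rho. Without the 2 farthest tumours r was 0.632, 0.455 and 0.496. In the M OMMs it was 0.574, 0.656 and 0.461 (permutation p = 0.0523 for CCT2 with CCT5) and in the NM OMMs 0.438, 0.449 and 0.524, where none of the 3 passed. Without the cross breed OMMs CCT2 with CCT5 had r = 0.411 (permutation p = 0.063). With the bright share removed they were 0.315, 0.358 and 0.353, with permutation p between 0.0608 and 0.103.

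HSPD1 and HSPE1 lie next to each other in the RefSeq annotation of the dog assembly UU_Cfam_GSD_1.0, and their proteins form 1 mitochondrial folding chamber. Their values did not follow each other over the 28 OMMs (r = -0.001, permutation p = 0.997, rho = 0.049, permutation p = 0.806). HSPD1 ran from 0.85 to 1.97 with an SD of 0.28, while HSPE1 ran from 1.20 to 4.66 with an SD of 1.07. The HSPD1 values thus lay in the dimmest part of the scale. HSPE1 had a second, dimmer Transcript cluster, whose differences in the 3 comparisons were 0.01, 0.11 and -0.15 against 0.24, 1.16 and -0.84 at the brightest.

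**Figure D4:**
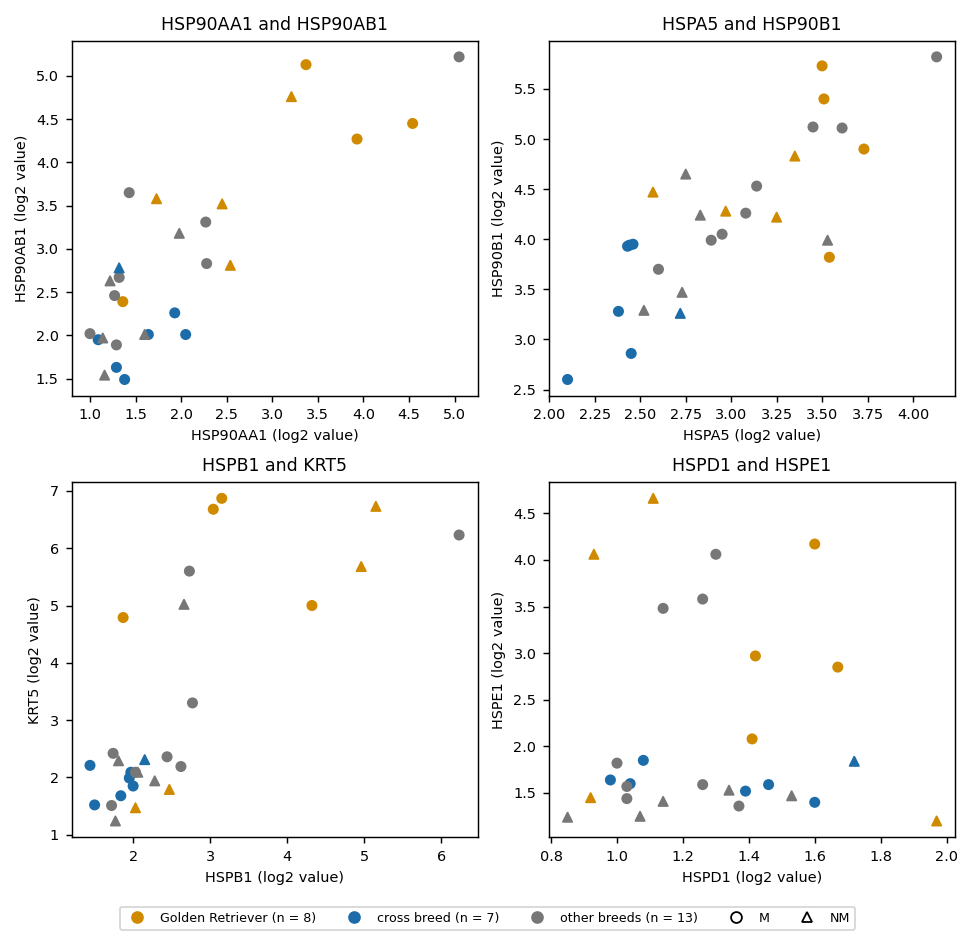
Log2 values of the first gene (x axis) and the second gene (y axis) of 4 pairs in 28 OMMs, 1 point per tumour, coloured by breed and shaped by metastatic status. HSP90AA1 with HSP90AB1 and HSPA5 with HSP90B1 rise together, KRT5 falls into a lower set of 19 and an upper set of 9 tumours, and HSPD1 spans a narrow range while HSPE1 runs from 1.20 to 4.66.

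HSPB1, the small heat shock protein abundant in stratified epithelium, was set against KRT5, a keratin of basal epithelial cells. KRT5 divided the tumours into 19 with values from 1.24 to 3.30 and 9 with values from 4.79 to 6.87, so that no r over all 28 is given. HSPB1 ran from 1.44 through 2.0 to 2.77 in the 19 tumours and from 1.87 through 3.15 to 6.23 in the 9. Within the 19 r was 0.512 (permutation p = 0.0252, rho = 0.325, permutation p = 0.177) and within the 9 it was 0.366 (permutation p = 0.328, rho = 0.533, permutation p = 0.147). The 9 tumours included 6 of the 8 Golden Retriever OMMs and none from cross breed dogs. The highest HSPB1 value belonged to the Bullmastiff M OMM.

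Of the other small heat shock proteins, HSPB6, a muscle-enriched member, did not follow the muscle filament gene DES (r = 0.128, permutation p = 0.54, rho = 0.161, permutation p = 0.411). HSPB8 had its 2 highest values in the tumours with the most CKM, 2.63 in the Golden Retriever M OMM replicate 15 and 2.21 in the Great Dane NM OMM. HSPB2 ran from 1.32 to 2.30, HSPB3 from 1.36 to 2.55 and HSPB7 from 1.38 to 2.31 over the 28 tumours, and none of the 3 was called in any comparison.

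CCT2, the beta subunit of the CCT ring, had the widest spread of the 9 CCT genes (SD 1.07). It stood at 6.95 in the Cocker Spaniel M OMM and at 5.60 in the Dachshund M OMM replicate 6, while the other 26 tumours lay between 2.25 and 4.63. Both are M OMMs, and the difference between M and NM OMMs was 0.51 (standard error 0.40, unadjusted p = 0.217 in limma). The M median of 3.05 stood against an NM median of 2.70. The other ring subunits were not at their highest in either tumour.

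In the RefSeq annotation of UU_Cfam_GSD_1.0, FRS2, an adaptor of growth factor receptors, is the next gene before CCT2, and YEATS4, LYZ, CPSF6, CPM and MDM2 follow outward. Of 14 genes of this neighbourhood that were measured, CCT2 included, 7 had their highest value of the 28 tumours in the same Cocker Spaniel OMM. FRS2 stood at 5.67 there against 1.51 to 2.96 in the others, MDM2, the main ubiquitin ligase of p53, at 4.80 against 0.78 to 4.47, YEATS4 at 4.10 against 1.25 to 3.70, and CPSF6 at 3.41 against 1.3 to 2.43. CPM, at 3.06, and CNOT2, at 4.80, were the other genes with their highest value there. LYZ between them was at 1.80, the ninth highest value, and LRRC10, the next gene after CCT2, was among the 4 lowest at 1.54. BEST3 (1.13) and MYRFL (1.16) were also low there, ranked 25 and 24 of the 28 tumours. RAB3IP (3.41), SLC35E3 (3.45) and NUP107 (1.67) ranked 2, 3 and 4. In the Dachshund OMM with the second highest CCT2 value, FRS2 was at 2.70 and MDM2 at 1.99.

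**Figure D5:**
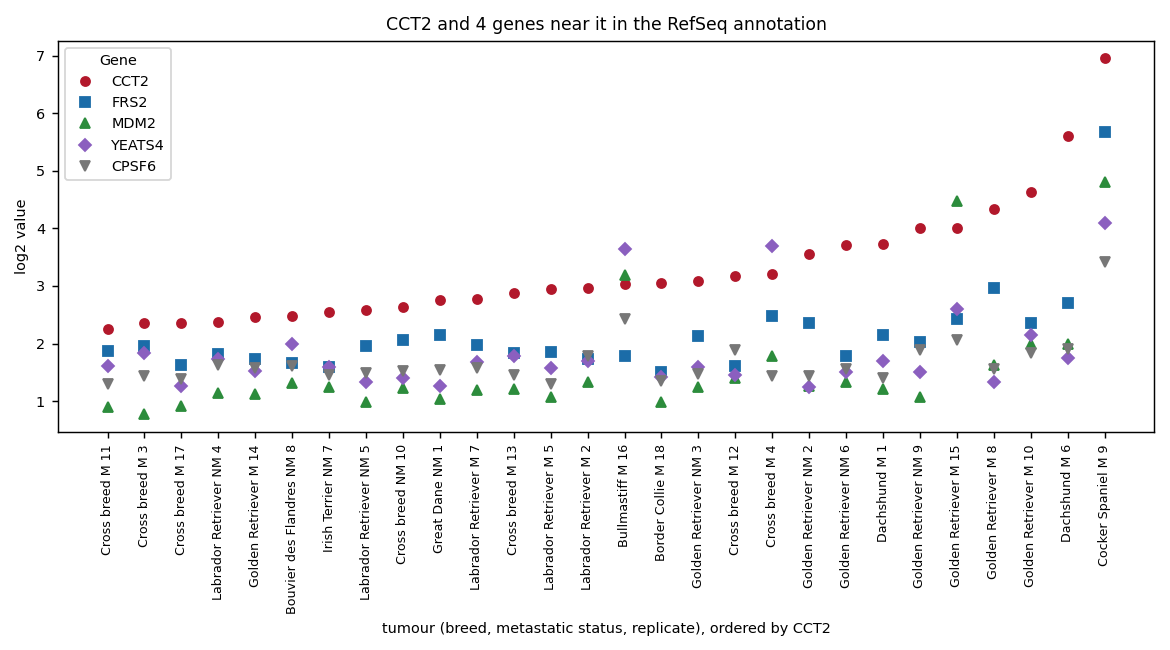
Log2 values of CCT2 and of 4 genes near it in the RefSeq annotation in each of the 28 OMMs, ordered by CCT2. All 5 genes have their highest value in the Cocker Spaniel M OMM on the right, and they are among the 7 of 14 measured genes that do. In the Dachshund M OMM beside it CCT2 is at 5.60 and the other 4 lie between 1.75 and 2.70.

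Within families, the genes varied together to different degrees, given here as a description over 28 tumours that share arrays and brightness. The median Pearson r over pairs of genes was 0.771 for the 3 HSP90 genes, 0.378 for the 9 CCT genes, 0.193 for the 10 HSPA genes, 0.113 for the 7 HSPB genes, and 0.062 or less for the DNAJA, DNAJB and DNAJC genes, against 0.041 over all pairs of the 72. The spread of single genes differed as widely, with an SD over tumours of 1.18 for HSPB1, 1.09 for HSP90AB1, 1.08 for DNAJC10 and 1.08 for HSP90AA1, and of 0.14 for CCT6B.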

How the data were processed

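The authors hybridised amplified RNA of each FFPE biopsy to 1 canine gene array, excluded arrays with outlying quality metrics and processed the rest with the Affymetrix Expression Console 1.3, in which the RMA algorithm quantile normalises probe signals, transforms them to log2 and summarises them per Transcript cluster. The deposited log2 values of 32391 Transcript clusters and 28 arrays were used as given. The filter of the study on detection above background was not applied, since it needs values not used here. The study also kept only Transcript clusters annotated as having a unique hybridisation target and as category main. That selection was not made here either. Gene symbols came from the array annotation, which names 1 symbol for 16878 Transcript clusters and several for 289.

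All Transcript clusters were fitted with limma 3.58.1 in R 4.3.3 (lmFit and eBayes) on status, on Golden Retriever or cross breed against other breeds with status in the model, and on their interaction, with p-values adjusted by Benjamini-Hochberg and called under 0.05. Pairs of genes were tested with 100000 permutations in Python 3.11.15. Arrays give no counts, so their number limits the precision. Each tumour is 1 dog and 1 array. The genes named in the text are a list of well-known chaperones, the 5 genes with the smallest p in each direction for status and for Golden Retriever breed, and the widest-spread gene of each family. A gene outside this rule is named because its value had been seen. The members and lists were chosen with earlier results of these data known. RefSeq's table of UU_Cfam_GSD_1.0 served only for which genes neighbour each other. Scripts were tested on simulated data. The alternatives were an unmoderated t-test (the study's adjustment by permutation was not repeated), other limma options, other scalings, filters, covariates, blocks, and each tumour left out, and 2 of them, the bright share as a covariate and the Bullmastiff OMM left out, were added after the data had been seen, as were the pairs within sets of tumours.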

Additional observations from a re-analysis of the deposited data

Results flagged for a closer look

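In 129 sets of values, 1 per named gene in the NM, Golden Retriever and cross breed OMMs, 10 held a tumour that stood apart from the rest of its group by Dixon's 95% criterion, which chance meets in about 1 of 20 sets. In the NM OMMs, DNAJC22 was at 2.57 in the cross breed OMM replicate 10 (others at most 1.85), DNAJC4 at 2.79 in the Bouvier des Flandres OMM (others at most 2.06) and HSPB8 at 2.21 in the Great Dane OMM (others at most 1.71). In the Golden Retriever OMMs, CCT8 was at 3.64 in M replicate 10 (others at most 2.32), DNAJC5B at 1.50 in NM replicate 6 (others at most 1.19) and HSPB8 at 2.63 in M replicate 15 (others at most 1.79). In the cross breed OMMs, DNAJA1 was at 2.42 in M replicate 12 (others at most 1.92), DNAJB6 at 2.45 in M replicate 3 (others at most 1.75), DNAJC5B at 1.91 in NM replicate 10 (others at most 1.3) and HSPA12A at 1.78 in M replicate 4 (others at most 1.51).

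The 2 tumours with high HSPB8 were those with the highest values of CKM, MYH2 and MB, genes of skeletal muscle. In the Great Dane OMM MB was at 5.85 and in the Golden Retriever OMM at 3.75. The part of muscle in the HSPB8 values was not tested.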

How the results depend on the processing

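Between M and NM OMMs 0 Transcript clusters and 0 members were called under every alternative run, and the replicate number as a block gave 0 of each as well. The numbers do not pair the tumours, since same-numbered M and NM OMMs correlated between -0.412 and 0.122 in their deviations and 1 of 10 NM OMMs correlated best with its own number. The interaction gave 0 under all alternatives run. For Golden Retriever OMMs the calls were 824 Transcript clusters and 6 members. They were 65 and 1 by the same linear model without moderated variances and 258 and 2 with limma's trend. Among the brighter Transcript clusters, those above the median, they were 2214 and 13. They were 7182 and 32 with array weights, 104 and 1 after quantile normalisation, and 4162 and 22 without the Bullmastiff OMM. Without the cross breed OMMs they were 0 and 0, as with the first principal component or with the bright share as a covariate. Leaving out 1 tumour gave between 2 and 4908 Transcript clusters and between 0 and 27 members. For cross breed OMMs the calls were 6281 and 24, with 2594 Transcript clusters among those with 1 symbol, 3 and 0 with the first principal component, 12 and 0 with the bright share, and 14 members without the Bullmastiff OMM. Leaving out 1 tumour gave between 3771 and 7695 Transcript clusters and between 10 and 28 members. Calls for Golden Retriever OMMs divided into 470 higher and 354 lower Transcript clusters, 91 and 13 after quantile normalisation and 637 and 268 after median centring. For cross breed OMMs they were 4614 and 1667, 3204 and 1921, and 2660 and 1940. Of the 7 pairs given over all tumours 5 passed adjustment, 4 among the M OMMs alone, 4 without the cross breed OMMs, 1 among the NM OMMs alone and 2 with the bright share removed.

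With the first principal component as a covariate, the cross breed differences of called genes turned positive for CCT3 (0.17), DNAJB1 (0.14), DNAJC10 (0.53), DNAJC3 (0.009), DNAJC8 (0.22), HSP90AB1 (0.45), HSPA4 (0.11), HSPA8 (0.24) and HSPA9 (0.26), and with the bright share those of DNAJB1 (0.007), DNAJC10 (0.033) and HSP90AB1 (0.10) did. The cause was not tested. Both covariates are computed from the same arrays and differ between the breeds. Only HSPE1 had a second Transcript cluster of its own, and its brightest was also its most variable, so that choice could alter no other gene. Most members lie in the dim part of the scale, which limits the size of difference that their values can show.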
